A study of Mus musculus with 3 samples.

Results

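Resident macrophages of the dermis carry a set of transcripts that sets them apart from monocytes newly arrived from blood, and 10 of these genes were followed here across unirradiated and UVB-irradiated mouse skin. The set was Lyve1, Folr2, Ednrb, F13a1, Cd163, Igf1, Selenop, Cbr2, Fcna and Maf, 10 of the 32285 genes counted. The genes were selected on earlier values of these same libraries, so their levels are given as a description and carry no test. They were found by symbol, each on 1 row, and were counted in macrophages, defined as cells with at least 4 of C1qa, C1qb, C1qc, Ms4a7, Csf1r and Mrc1 detected, and in the other cell classes.

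The cells came from dorsal skin of male C57Bl/6 mice aged 8 weeks, in telogen, after enrichment of immune cells on CD45 beads. WTctrl was wild-type skin without UVB, and WTUV was wild-type skin after 3 UVB exposures. RPUV was skin of Rosa26-rtTA, Tre-Ptgs2 mice after 3 UVB exposures, in which doxycycline switches on rat Ptgs2 from the ubiquitous Rosa26 locus in all tissues rather than in immune cells alone. Ptgs2 encodes Cox-2, a prostaglandin-forming enzyme. The sources used here do not say whether the wild-type mice had doxycycline, so RPUV may differ from them in doxycycline as well as genotype. RPUV and WTctrl also differ in UVB. There was 1 library per group, so none of the differences between libraries had a replicate check, and the intervals below are 95% intervals that cover counting error only.

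The filtered libraries held 5309 to 6070 cells and 25795684 to 64556621 unique molecular identifiers (UMIs), of which 1925 cells of WTctrl, 2704 of WTUV and 2631 of RPUV were macrophages. Macrophages of WTUV were the deepest, with a median of 11930.5 UMIs against 3905 in WTctrl and 4814 in RPUV. WTUV was also sequenced on another flow cell than the other libraries, and run and group cannot be told apart in its comparisons. Between 8 and 11 cell barcodes were shared by any pair of libraries. Ptgs2 itself was counted at 14.4, 117 and 486 CPM (UMIs of the gene per 1000000 UMIs of the cells summed) over all cells of WTctrl, WTUV and RPUV. In macrophages it was at 8.13, 107 and 248 CPM. The mouse gene was counted, and how far reads of the rat transgene are counted with it was not tested. The makeup of all cells also differed between libraries.

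In healthy skin, dermal macrophages lie along vessels and nerves, where they clear debris, scavenge plasma proteins and secrete growth factors. Cells with much Lyve1 and little MHC class II are usually told apart from cells with the opposite pattern, and blood monocytes, marked by Ccr2 and Ly6c2, can enter the tissue and take on macrophage features. Of the set, Lyve1, a hyaluronan receptor, Folr2, a folate receptor, Cd163, the receptor for haptoglobin and haemoglobin complexes, and Ednrb, an endothelin receptor, encode surface proteins. Igf1 (insulin-like growth factor), Selenop (the selenium carrier selenoprotein P), Fcna (ficolin A, a lectin of the complement system) and F13a1 (the catalytic chain of coagulation factor XIII) encode proteins found outside the cell or, for F13a1, also kept inside it. Cbr2 encodes a carbonyl reductase, and Maf the transcription factor c-Maf.

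The genes lie on 9 autosomes, and Lyve1 and Folr2 are both on chromosome 7 (GRCm38.p6, 110850607 to 110862953 and 101839988 to 101857190). RefSeq promoter windows of the same build were found for 8 of the 10 genes, in 12 windows. The 250 bases upstream of the start were searched on both strands for the letters TGCTGA, the core of the element bound by Maf proteins, and GAGGAA, a core bound by the myeloid factor PU.1. The promoters of Fcna, Ednrb and Folr2 are shown because they hold the Maf letters, and that of Igf1, the gene furthest from its WTctrl level in RPUV, because it does not. Capitals mark either set of letters.
Fcna, chr2:25627975-25628224, minus strand: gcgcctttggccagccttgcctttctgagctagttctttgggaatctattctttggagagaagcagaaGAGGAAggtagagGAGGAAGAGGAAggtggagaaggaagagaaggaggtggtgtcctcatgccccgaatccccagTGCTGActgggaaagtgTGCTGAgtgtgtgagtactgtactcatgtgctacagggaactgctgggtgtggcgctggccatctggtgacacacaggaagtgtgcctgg
Ednrb, chr14:103843702-103843951, minus strand: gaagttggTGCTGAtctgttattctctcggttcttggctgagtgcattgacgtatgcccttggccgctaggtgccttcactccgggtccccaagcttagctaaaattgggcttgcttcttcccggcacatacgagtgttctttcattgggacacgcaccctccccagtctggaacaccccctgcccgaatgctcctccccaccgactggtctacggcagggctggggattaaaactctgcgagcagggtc
Folr2, chr7:101845332-101845581, minus strand: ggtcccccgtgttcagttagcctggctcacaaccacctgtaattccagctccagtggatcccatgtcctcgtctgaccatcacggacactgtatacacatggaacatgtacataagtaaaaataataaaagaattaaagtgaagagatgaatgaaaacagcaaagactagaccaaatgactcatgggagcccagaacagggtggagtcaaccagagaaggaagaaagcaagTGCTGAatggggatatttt
Igf1, chr10:87860861-87861110, plus strand: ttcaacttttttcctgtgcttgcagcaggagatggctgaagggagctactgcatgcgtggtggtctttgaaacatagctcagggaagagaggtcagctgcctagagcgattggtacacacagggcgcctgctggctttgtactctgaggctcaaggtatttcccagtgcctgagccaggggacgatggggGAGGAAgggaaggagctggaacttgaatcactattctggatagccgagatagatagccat
Fcna held the Maf letters at 2 places, which began 107 and 90 bases upstream of the start, and the PU.1 letters at 3. In Ednrb the Maf letters began 242 bases upstream, in this window of Folr2 19 bases upstream, and the other Folr2 window held them 220 bases upstream. Of all 32841 promoter windows of this length, 16.1% held the Maf letters and 23.3% the PU.1 letters. Of the 12 windows of the set, 4 held the Maf letters and 6 the PU.1 letters. The PU.1 windows belonged to 5 of the 8 genes (Cbr2, F13a1, Fcna, Igf1 and Selenop). A match is a run of letters, and binding was not measured.

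All 10 genes had their highest level in macrophages in classes with at least 50 cells, and 83.1% to 99.2% of the UMIs of each gene lay in that class. The closest other class depended on the gene. Cd163 reached 266, 176 and 136 CPM in type 2 conventional dendritic cells (cDC2) of WTctrl, WTUV and RPUV, against 781, 613 and 620.4 in macrophages. Fcna was also counted in cDC2, at 50.8 in WTctrl and 24.0 in WTUV, against 168 and 74.4 in macrophages.

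F13a1 was counted in monocytes at 324 CPM in WTUV, where macrophages had 1555. Fibroblasts carried Igf1 at 238 CPM in WTctrl and 243 in RPUV (interval 213 to 275), so that Igf1 in RPUV macrophages, at 308, was only 1.27 times the fibroblast level. Ednrb reached 175 in pericytes of RPUV (142 to 213), and its macrophages were 2.60 times as high. The 3 to 7 cells classed as melanocytes, a lineage that depends on Ednrb, held 4, 9 and 3 Ednrb UMIs in WTctrl, WTUV and RPUV. Lyve1, also a marker of lymphatic endothelium, stood at 30.1 in endothelial cells of WTctrl, below the 192 of its macrophages. Maf was counted in T or innate lymphoid cells of WTUV at 302 and in Schwann cells of RPUV at 388.

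**Figure D1:**
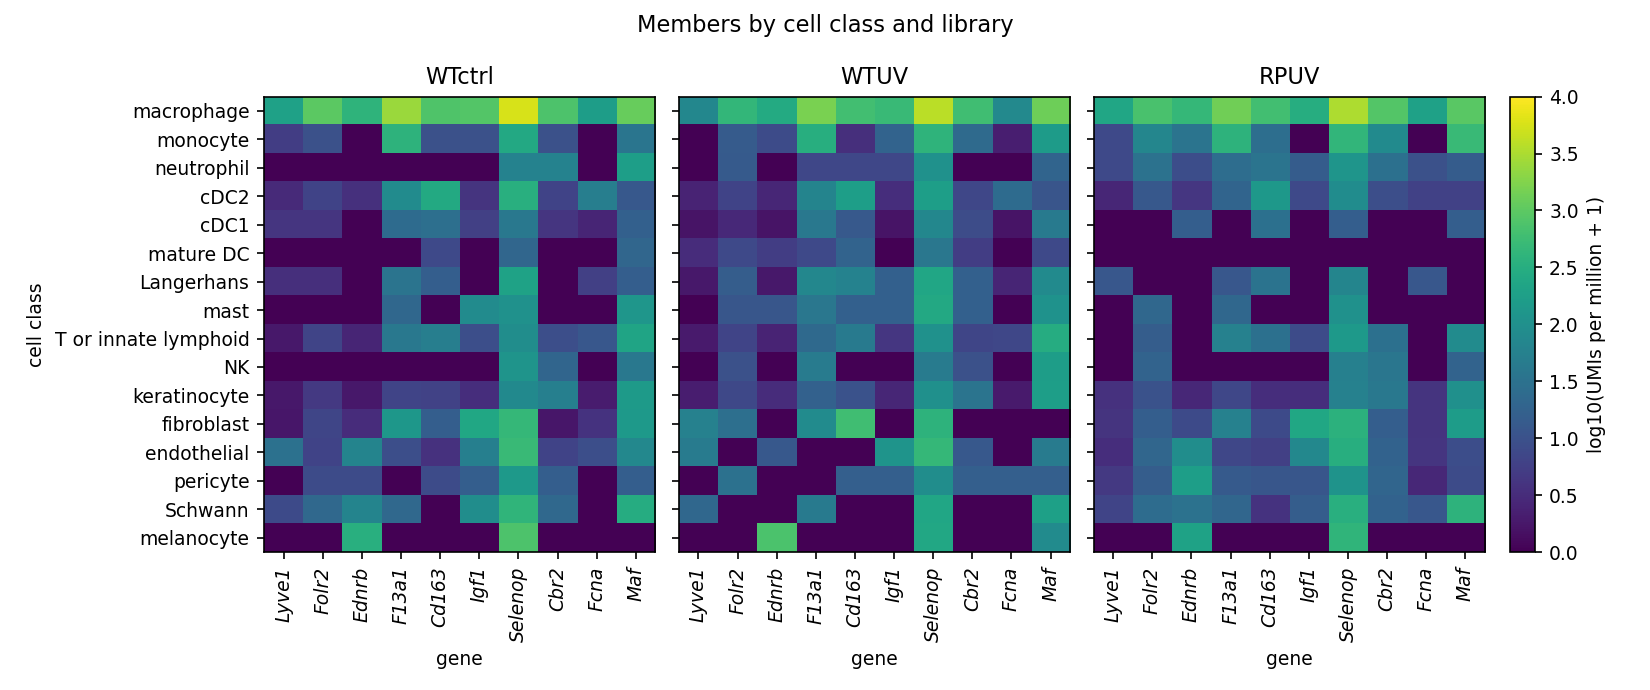
Level of each gene by cell class (rows) and library (panels), as log10 of CPM plus 1, from raw UMIs summed over the cells of a class. The macrophage row is the brightest for every gene, except that the 3 melanocytes of WTUV exceed it for Ednrb, and Cd163 stands out again in cDC2.

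The libraries were compared by the level of each gene in the macrophage sums. Lyve1, Folr2 and Fcna had their lowest level in WTUV, and Lyve1 and Fcna were higher in RPUV than in WTctrl over all macrophages, though not among cells without an H2-Aa UMI, as given with that split. Igf1, Selenop and F13a1 were highest in WTctrl and lowest in RPUV. Maf was the only one of the 10 with its highest level in WTUV. The scale is CPM of all UMIs in macrophages, counted from the 3' end and not divided by gene length, and a lower share of cells with the gene cannot be told apart from less RNA per cell on this scale.

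Lyve1 stood at 192 CPM in WTctrl, 71.1 in WTUV and 235 in RPUV. WTUV was the low library, at 0.370 times WTctrl (0.347 to 0.394), and RPUV was 3.31 times WTUV (3.14 to 3.48). Against WTctrl, which shared its flow cell, RPUV was 1.22 times as high (1.15 to 1.30). Fcna had the same order, with 168, 74.4 and 193 CPM. Its ratio was 0.444 for WTUV over WTctrl (0.415 to 0.474) and 2.59 for RPUV over WTUV (2.46 to 2.74).

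Folr2 was at 984 in WTctrl, 439.7 in WTUV and 708 in RPUV. RPUV lay between the others, 1.61 times WTUV (1.57 to 1.65) and 0.719 times WTctrl (0.699 to 0.741). Ednrb was at 402, 276 and 456, and Cbr2 at 756, 588 and 838. Both genes were lower in WTUV than in WTctrl, by ratios of 0.687 and 0.779, and slightly higher in RPUV than in WTctrl, by ratios of 1.13 and 1.11. Both were lower in RPUV than in WTctrl when cells with and without an H2-Aa UMI were taken apart, with ratios of 0.781 and 0.630 for Ednrb and 0.886 and 0.858 for Cbr2. H2-Aa itself was detected in a smaller share of RPUV macrophages, so these sets do not match like cells.

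Cd163 differed little between the irradiated libraries over all macrophages. It stood at 781 in WTctrl, 613 in WTUV and 620.4 in RPUV, and the ratio of RPUV over WTUV was 1.01 (0.988 to 1.04). Among cells without a Ccr2 UMI the ratio was 0.730 (0.693 to 0.770).

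Igf1 stood at 836 CPM in WTctrl, 504 in WTUV and 308 in RPUV. Each step was of similar size, with ratios of 0.603 (0.586 to 0.620) and 0.612 (0.592 to 0.632), and RPUV over WTctrl came to 0.369 (0.355 to 0.383). Selenop was at 5738, 3803 and 3219, and F13a1 at 2487, 1555 and 1361. Over all macrophages WTUV was at 0.663 and 0.625 times WTctrl, and RPUV at 0.846 and 0.875 times WTUV, but the larger step moved for Selenop and F13a1 in cells without a Ccr2 UMI. There the ratios were 0.820 and then 0.625 for Selenop, and 0.769 and then 0.686 for F13a1. Maf was at 1196, 1295 and 940.4, so that RPUV was at 0.726 times WTUV (0.713 to 0.740) and 0.787 times WTctrl (0.766 to 0.808).

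**Figure D2:**
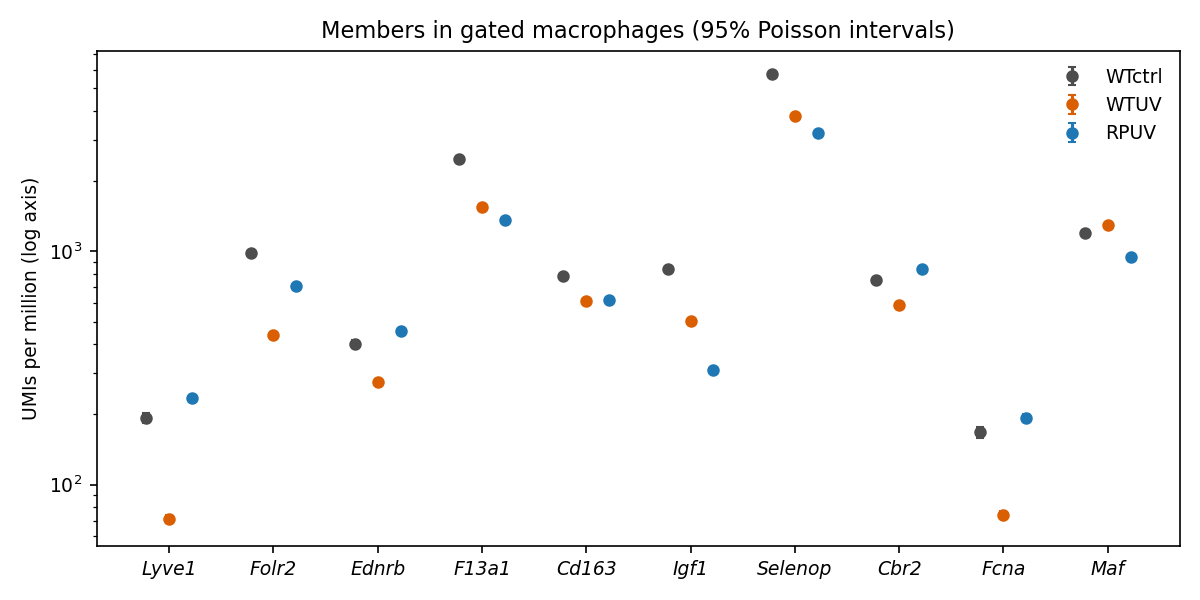
CPM (log axis) of the 10 genes in gated macrophages of each library, with exact Poisson 95% intervals, which are mostly narrower than the points. WTUV is lowest for Lyve1, Folr2, Ednrb, Cbr2 and Fcna, RPUV is lowest for F13a1, Igf1, Selenop and Maf, and WTUV is highest for Maf alone.

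As a set, 9 of the 10 genes had an interval below 1 for WTUV over WTctrl and 1 above, where 24.1% of all tested genes were below and 29.4% above, and their median log2 ratio was -0.64, against 0.02 for all 9361 genes with a mean of at least 5 CPM. At a limit of 2-fold, 3 of the 10 genes were lower (Lyve1, Folr2, Fcna) and none was higher, where 1.88% of all tested genes were lower and 4.88% higher. For RPUV over WTUV the genes split, with 5 intervals above 1, 4 below and a median of 0.26, beside 33.6% of all tested genes above and 34.7% below. At 2-fold, Lyve1 and Fcna were higher and none was lower, beside 2.72% of all genes higher and 4.17% lower. For RPUV over WTctrl the median was -0.34, with 6 intervals below 1 and 4 above (29.3% and 34.5% of all tested genes), and only Igf1 passed 2-fold, downwards, beside 4.28% of all genes lower and 5.6% higher. Because the genes were selected on these contrasts, nothing is read from these counts.

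The gate can read more cells in at greater depth, so it was also applied to cells of equal depth. That setting leaves out cells under 2000 UMIs as well, and the part of each in the shift was not tested. When each cell was first thinned to 2000 UMIs and gated on those, the median for WTUV over WTctrl was -0.35 and only Lyve1 stayed 2-fold lower (log2 ratio -1.08, beside -0.87 for Folr2 and -0.86 for Fcna). The median for RPUV over WTUV was then 0.03, with Lyve1 at 1.45 and Igf1 at -0.97. Gate genes also moved between libraries: C1qa was at 4702, 2962 and 5522 CPM of macrophages, and Mrc1 at 2884, 2629 and 2623.

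Detection per cell was compared after thinning each macrophage to 2000 UMIs, which left 1657, 2624 and 2357 cells and dropped 268, 80 and 274 shallower ones. A macrophage of WTctrl carried 6.19 of the 10 transcripts on average (SD over cells 2.15), one of WTUV 4.68 (2.80) and one of RPUV 5.67 (2.48). Without thinning the means were 6.91, 6.29 and 6.79. Keratinocytes, which should lack most of these genes, carried 0.404 to 0.583 at the same depth. The difference sat at the low end of the distribution, where cells with at most 1 of the transcripts made up 3.56% of WTctrl (2.72 to 4.57), 18.9% of WTUV (17.4 to 20.4) and 8.57% of RPUV (7.47 to 9.77). Cells with at least 5 made up 81.4%, 55.2% and 71.4%.

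**Figure D3:**
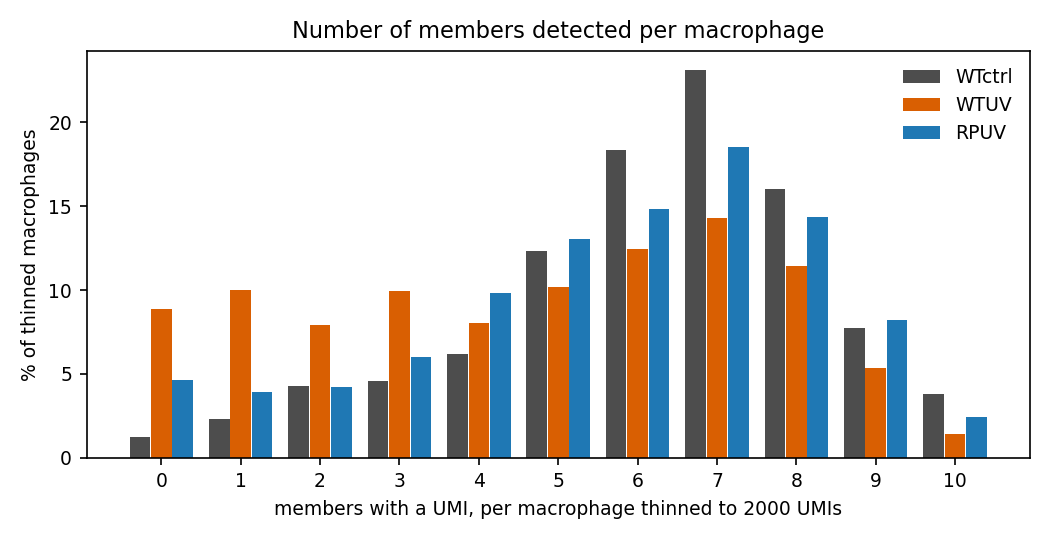
Share of macrophages, each thinned to 2000 UMIs, by the number of the 10 transcripts with at least 1 UMI. All libraries peak at 7 transcripts, and WTUV alone has 7.93% or more of its cells in each bar from 0 to 3.

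The share of thinned macrophages with a Lyve1 UMI was 19.1% in WTctrl (17.2 to 21.0), 10.3% in WTUV (9.12 to 11.5) and 26.6% in RPUV (24.9 to 28.5). In keratinocytes it was 0.127% to 0.248%. Fcna was detected in 18.0%, 13% and 23.4% of thinned macrophages, while without thinning the WTUV share of 35.2% lay above the 24.8% of WTctrl. Folr2 was detected in 67.8%, 42.0% and 65.0%, Ednrb in 38.1%, 28.4% and 43.7%, and Cbr2 in 68.1%, 51.1% and 69.1%. For these 5 genes the share in RPUV was above that in WTUV by more than the counting intervals.

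Igf1 was detected in 74.8% of macrophages in WTctrl, 47.9% in WTUV and 41.3% in RPUV. Among cells with the transcript, the mean was 2.42 Igf1 UMIs in WTctrl, 2.31 in WTUV and 1.55 in RPUV, so the irradiated libraries differed in the level per positive cell more than in the share. Selenop and F13a1 also had fewer UMIs per positive cell in that order of libraries, with 12.8, 10.2 and 7.40 for Selenop and 5.66, 4.76 and 3.63 for F13a1. Their shares with a UMI, 90.5% and 81.7% in RPUV, were nevertheless above those of WTUV, 83.8% and 72.7%. Maf had 3.07 UMIs per positive cell in WTctrl, 3.98 in WTUV and 2.64 in RPUV, with shares of 81.7%, 74.3% and 75.9%. Cd163 was detected in 63.6%, 44.6% and 49.3%. Keratinocytes had a Selenop UMI in 11.4% to 19.4% of cells and a Maf UMI in 17.8% to 25.2%, so these transcripts were counted outside macrophages as well.

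Most of the 10 genes were detected in a larger share of the cells that held another of them. Of their 45 pairs, 43 in WTctrl and 45 in each irradiated library had the second gene in a larger share of the cells that held the first. The median ratio of these shares, with the first gene over without it, was 1.31 in WTctrl, 2.18 in WTUV and 1.5 in RPUV. The genes were chosen for a shared pattern, so this is a description. No share over pairs of other genes was computed, so the counts are not read as a trait of the set.

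Among the 316 Lyve1-positive macrophages of WTctrl, 79.1% also held Ednrb (74.2 to 83.5), against 28.4% of Lyve1-negative cells. In WTUV the shares were 82.9% and 22.2%, and in RPUV 76.1% and 31.9%. Fcna was likewise found in 52.8%, 39.4% and 47.8% of Lyve1-positive cells, and in 9.77%, 9.98% and 14.6% of Lyve1-negative ones. Lyve1, Ednrb and Fcna were thus detected together in each library.

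Igf1 stood apart in unirradiated skin. In WTctrl it was detected in 73.4% of Lyve1-positive cells (68.2 to 78.2) and 75.2% of Lyve1-negative cells (72.8 to 77.5), which overlap. In WTUV the shares parted to 74.7% (69.1 to 79.8) and 44.8% (42.8 to 46.9). The Lyve1-positive cells of WTUV thus kept the WTctrl share within counting error. In RPUV they were 52.5% (48.6 to 56.5) and 37.2% (35.0 to 39.6), so that Lyve1-positive cells also had a lower share there. Igf1 with Fcna and Igf1 with Ednrb were the other pairs whose intervals overlapped in WTctrl.

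**Figure D4:**
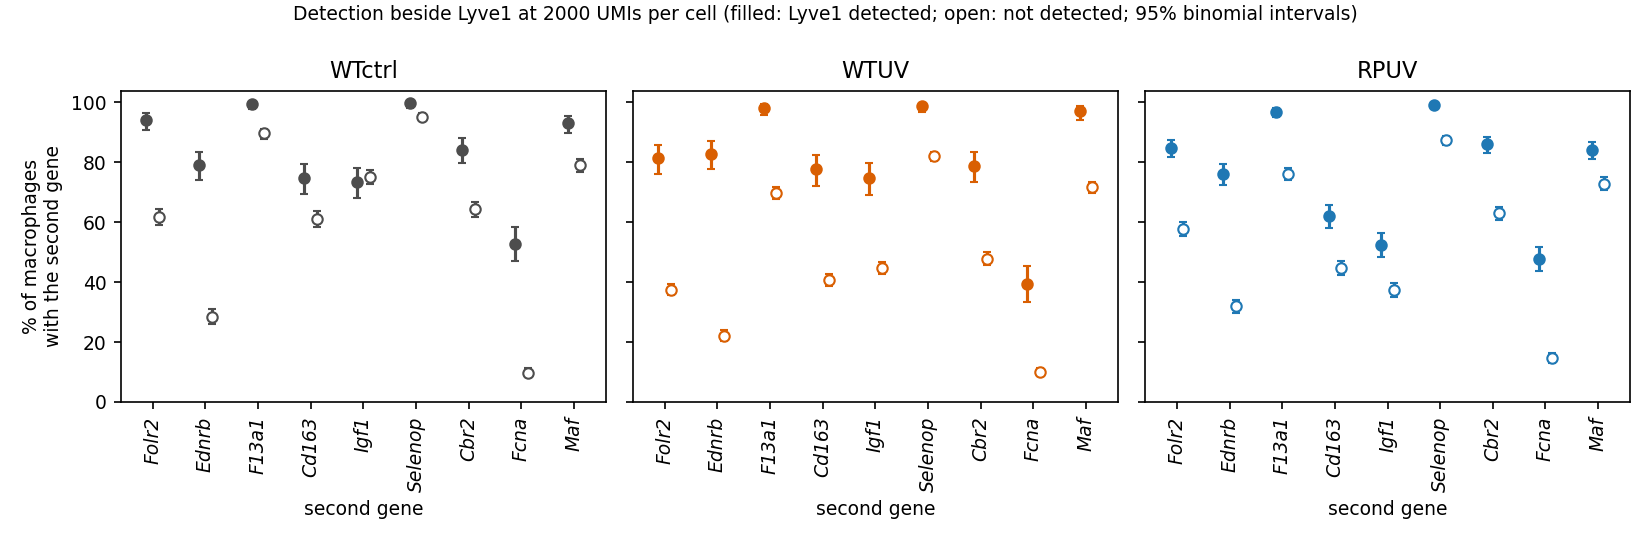
Share of thinned macrophages that hold each of the other 9 transcripts, among cells with a Lyve1 UMI (filled) and without (open), with exact binomial 95% intervals. Filled points lie above open points throughout except for Igf1 in WTctrl, at 73.4% and 75.2%.

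Thinned macrophages were then split by detection of Ccr2, the chemokine receptor of recruited monocytes. Ccr2 was detected in 23.1% of WTctrl, 39.2% of WTUV and 13.2% of RPUV macrophages, and its level in the macrophage sums was 359, 551 and 116 CPM. All 10 genes were lower in Ccr2-positive than in Ccr2-negative cells of every library, with median ratios of 0.431, 0.295 and 0.378. Of all tested genes, 11.2%, 18.9% and 10.1% had an interval below 1 in the same comparison. In WTUV, Ednrb stood at 54.9 in positive and 524 in negative cells, and Lyve1 at 18.5 and 145. Igf1 in WTctrl differed least between these cells in that library, at 722 and 959.6, a ratio of 0.752 (0.685 to 0.825). The monocyte marker panel summed to 453, 693 and 484 CPM in the macrophages, and 5, 296 and 117 of them held at least 3 of its 6 markers. Its part in the values was not tested.

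Among Ccr2-negative macrophages, which numbered 1274, 1595 and 2047, the libraries lay closer together for some genes and not for others. The WTUV over WTctrl ratio was 0.628 for Lyve1 (0.555 to 0.711), 0.558 for Folr2 and 0.602 for Fcna, so that none of the 10 passed 2-fold when each cell counted equally. With cells weighted by their full depth, Lyve1 alone did, at a log2 ratio of -1.08. Cd163 came to 0.926 (0.878 to 0.977) and Ednrb to 1.08, with an interval that reached 1 (upper bound 1.16), but the depth-weighted value for Ednrb was a log2 ratio of -0.18, the other direction. Maf was at 1.22 (1.17 to 1.28).

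In the same Ccr2-negative cells, Lyve1 and Fcna of RPUV stayed above WTUV, at ratios of 2.01 (1.80 to 2.24) and 1.99 (1.77 to 2.23). Igf1 was at 771 in WTUV and 354 in RPUV, a ratio of 0.459 (0.430 to 0.490), and against WTctrl the ratio was 0.369, the same as over all macrophages. Selenop came to 0.625 of WTUV, F13a1 to 0.686, Maf to 0.586 and Cd163 to 0.730. Igf1, Selenop, F13a1 and Maf were thus further below WTUV than over all macrophages, where cells were weighted by full depth.

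**Figure D5:**
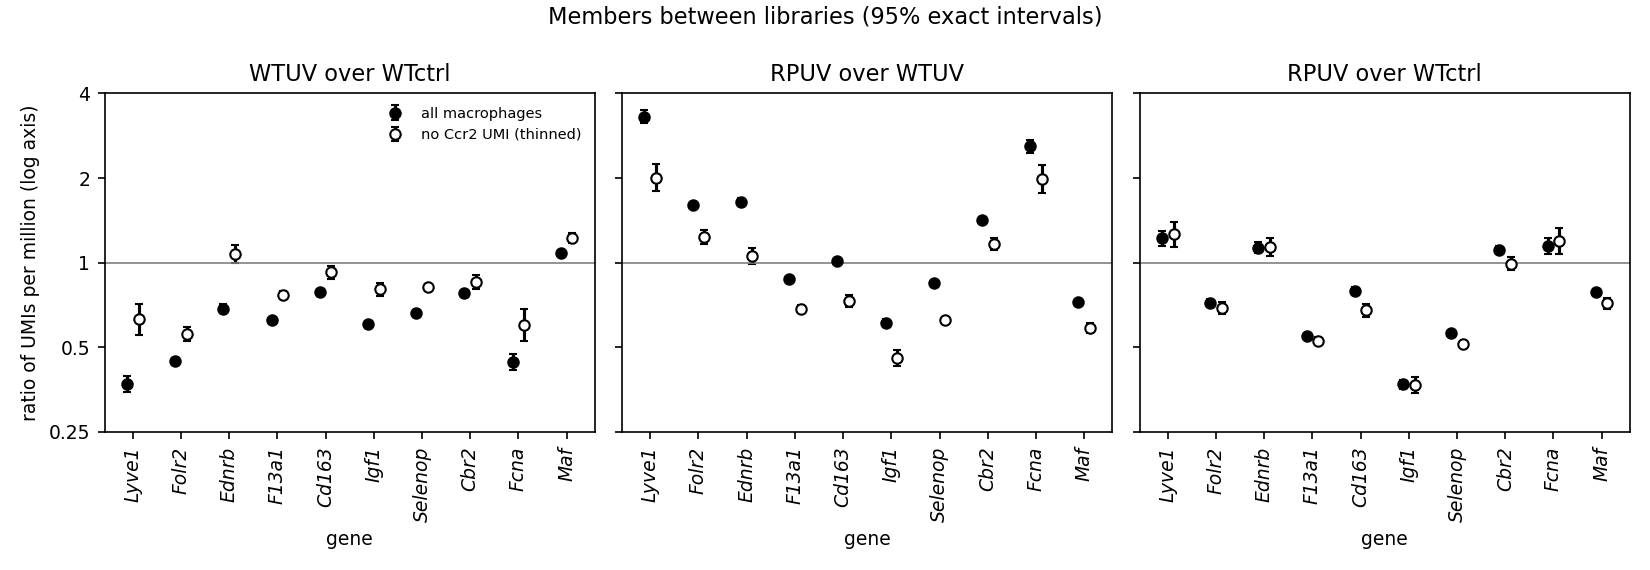
Ratio of CPM (log axis) for each pair of libraries, over all macrophages (filled) and over thinned macrophages without a Ccr2 UMI (open), with exact 95% intervals. Filled points weight cells by full depth and open points weight each cell equally, so the sets differ in weighting as well as in cells. Igf1 lies at 0.369 in both for RPUV over WTctrl. Ednrb for WTUV over WTctrl lies at 0.687 and 1.08, and its depth-weighted log2 ratio without Ccr2-positive cells was -0.18.

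Ccl8, a chemokine of resident dermal macrophages, split the cells the other way. It was detected in 85.6%, 67.0% and 80.1% of thinned macrophages, and all 10 genes were higher in Ccl8-positive cells of every library, by median ratios of 3.26, 4.57 and 3.19. The interval lay above 1 for 10.5%, 18.7% and 11.8% of all tested genes. H2-Aa, an MHC class II chain, was detected in 94.3%, 85.4% and 35.3%. Lyve1 was at 166 CPM in H2-Aa-positive and 617 in H2-Aa-negative cells of WTctrl, at 76.1 and 206 in WTUV, and at 167 and 308 in RPUV. All 10 genes were lower in H2-Aa-positive cells of both irradiated libraries, and 9 were in WTctrl, where Igf1 was higher, by a ratio of 1.25 (1.05 to 1.49). Of all tested genes, 5.48%, 11.7% and 10.3% had an interval below 1 in WTctrl, WTUV and RPUV.

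Comparisons of RPUV with WTctrl changed within the H2-Aa split, although only 94 cells of WTctrl lacked H2-Aa, against 1526 of RPUV. Among H2-Aa-negative cells all 10 genes had an interval below 1, beside 8.4% of all tested genes. Lyve1 was at 617 CPM in WTctrl and 308 in RPUV, a ratio of 0.50 (0.412 to 0.611), and Fcna had a ratio of 0.340 (0.285 to 0.409). Among H2-Aa-positive cells 8 of the 10 were below 1, beside 16% of all tested genes, while Lyve1 (167 against 166 CPM, interval of the ratio 0.863 to 1.16) and Fcna (ratio 1.09, 0.927 to 1.27) had intervals that spanned 1. H2-Aa itself was detected in 94.3% of WTctrl and 35.3% of RPUV macrophages, so each set holds an unlike part of the libraries. The higher level of both genes in RPUV was seen in neither set. The level over all macrophages pools both sets in these unlike shares, and the part of the mix in that level was not tested.

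The neighbours of the set were read from lists of resident macrophage genes, recruited monocyte genes, MHC class II genes and macrophage transcription factors. These lists were chosen with earlier results of these data known, so their counts are a description. At 2-fold, 1.88% of all tested genes were lower and 4.88% higher for WTUV over WTctrl. The shares were 4.17% and 2.72% for RPUV over WTUV, and 4.28% and 5.6% for RPUV over WTctrl. Of 12 resident macrophage genes, 1 was at least 2-fold lower in WTUV than in WTctrl, Timd4 (a phosphatidylserine receptor), at 0.286, and 0 were higher. The next lowest was Clec10a (0.518), and the highest were Dab2 (1.07) and Pf4 (0.948). In RPUV over WTUV, 1 was higher, Stab1 (a scavenger receptor), at 2.13, followed by Cd209f at 1.82, while Mgl2 (0.543) and Ccl8 (0.690) were the lowest. Against WTctrl, Mgl2 (0.285), Timd4 (0.374) and Ccl8 (0.460) were 2-fold lower in RPUV, and Stab1 (1.45) and Pf4 (1.40) the highest. The list medians were -0.69, 0.36 and -0.13 on the log2 scale, in the order WTUV over WTctrl, RPUV over WTUV and RPUV over WTctrl.

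Of the 12 recruited monocyte genes, 10 were tested. Against WTctrl, 6 were at least 2-fold higher in WTUV and 6 in RPUV, with 1 lower in each. Thbs1 (thrombospondin) stood at 0.875 CPM in WTctrl, 79.7 in WTUV and 85.0 in RPUV, and Chil3 had 1, 999 and 3402 UMIs. Ly6a (0.403) and Plac8 (0.685) were the lowest for WTUV over WTctrl. For RPUV over WTUV, 3 were higher and 2 lower, and Chil3 (8.61) and Spp1 (3.98) were the highest and Ccr2 (0.211) and Ly6c2 (0.309) the lowest. Ccr2 (0.324) and Fn1 (0.615) were the lowest for RPUV over WTctrl. The neutrophil marker panel summed to 33.8, 69.3 and 476 CPM in the macrophages of the 3 libraries, and 0, 10 and 108 of these cells held at least 3 of its 6 markers. Without those cells the median of the 10 genes was -0.63, 0.29 and -0.32 for the same comparisons.

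The 7 MHC class II genes were at least 2-fold lower in RPUV than in either other library, and none passed 2-fold for WTUV over WTctrl. Ciita, the master regulator of these genes, was at 135, 108 and 18.0 CPM, and H2-Aa at 7593, 4704 and 1287. For WTUV over WTctrl the lowest were H2-Eb1 (0.598) and H2-Aa (0.620) and the highest H2-DMb1 (1.08) and H2-DMa (0.961). In RPUV the smallest differences were those of H2-DMb1, at ratios of 0.457 to WTctrl and 0.421 to WTUV, and of H2-DMa, at 0.384 and 0.399.

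Of 10 macrophage transcription factors, 2 passed 2-fold upwards for WTUV over WTctrl, Nr1h3 (2.40, at 9.90 CPM) and Klf4 (2.08), while Klf2 (0.638) and Irf8 (0.723) were lowest. None passed 2-fold for RPUV over WTUV, where Klf2 (1.89) and Nr1h3 (1.23) were highest and Zeb2 (0.607) and Irf8 (0.642) lowest. Against WTctrl, RPUV had Nr1h3 (2.94) and Id3 (2.18) higher and Irf8 (0.464) lower, and Mef2c (0.621) was the next lowest.

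Binding partners and relatives of the 10 proteins were mostly rare in macrophages, and 5 of 13 were tested. Edn1 and Edn3, ligands of Ednrb, had 4 and 0 UMIs in macrophages of WTctrl, 41 and 1 in WTUV, and 12 and 0 in RPUV. Igf1r, the receptor of Igf1, was at 49.7, 40.6 and 35.1 CPM. Igfbp4, a binding protein of Igf1, was at 373, 179 and 269, with a ratio of 0.481 for WTUV over WTctrl (0.460 to 0.502) and 1.5 for RPUV over WTUV. Igf2r, a receptor of Igf2, was at 3.00, 4.06 and 9.84. Hp, the haptoglobin bound by Cd163, had 2, 92 and 212 UMIs.

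Macrophages with at least 5 of the 10 transcripts were set beside those with at most 1, which share a library and a depth of 2000 UMIs. The poor cells numbered 59, 495 and 202. The share of all tested genes that differ in this split was not computed, so the list counts below have no background. All 12 resident genes were higher in the rich cells of WTctrl and WTUV and 11 in RPUV, where Mgl2 was lower (0.738). Pf4 was at 5678 in rich and 259 in poor cells of WTUV. The 7 MHC class II genes were lower in the rich cells of every library, with H2-Aa at 6687 against 11263 in WTctrl, 2655 against 7730.3 in WTUV and 476 against 6686 in RPUV. The poor cells of the 3 libraries therefore lay closer in H2-Aa than the rich ones. Of the recruited monocyte genes with at least 30 UMIs, 3 of 5 were lower in the rich cells of WTctrl, 9 of 10 in WTUV and 7 of 9 in RPUV. Ly6a was higher in the rich cells of every library, by ratios of 4.14, 2.32 and 1.59, and Plac8 was in RPUV (1.72). Il1b, a cytokine, was at 53.5 in rich and 1388 in poor cells of WTUV, and at 283 and 2443 in RPUV, and Fn1 at 9.66 and 289 in WTUV.

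Over the 13 sums of myeloid classes with at least 50 cells, the genes most like the mean of the set were Igfbp4 (Pearson r 0.989 of log2 levels), Thbd, Hsf4, Unc5a, S1pr1, Rgsl1, Colec12 and Prkg1, all at 0.981 or above. These points share libraries and depth, and Hsf4, Rgsl1, Unc5a and Prkg1 stood below 5 CPM in every macrophage sum, so their likeness rests on few UMIs.

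Lyve1 also marks lymphatic endothelium, and that panel was checked in the macrophages. Its 5 markers with a single row summed to 1.5, 13.4 and 46.8 CPM, of which Pdpn made 485 of 487 UMIs in WTUV and 663 of 675 in RPUV. Prox1, Flt4, Mmrn1 and Reln were at 0 to 6 UMIs each in a library, and no macrophage held 3 of the panel. Larger panels also moved between the macrophage sums. The cDC2 panel was at 3807, 2167 and 1508 CPM, with at least 3 of its markers in 970, 1508 and 548 of the gated cells, and the Langerhans panel at 15859, 11784 and 3397 CPM, with 134, 597 and 148 such cells. The keratinocyte panel was at 686, 303 and 888 CPM. The cDC2 panel holds Clec10a and Mgl2, which resident macrophages also express, and the Langerhans panel holds the MHC class II chaperone Cd74, which gave 125062 of its 126800 UMIs in WTctrl. The part of these panels in the values was not tested. Without the cells holding at least 3 markers of a non-myeloid panel, the median of the set was -0.62, 0.24 and -0.35.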

How the data were processed

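Single-cell 3' RNA libraries of CD45-enriched dorsal skin were analysed, 1 per group. The deposited matrices hold UMI counts as Cell Ranger 6.1.1 wrote them (per the file headers), without normalization and with genome build mm10 per the labels. Cells with under 10% mitochondrial UMIs, more than 200 genes and fewer than 4000 genes (6000 in WTUV) were kept, as in the methods of the study. No doublets were removed, since those methods name no doublet caller. Macrophages held at least 4 of 6 markers, and other classes at least 3 of 6 and more than any other panel, so class names rest on marker panels alone. UMIs were summed per library and class and divided by all UMIs of that sum (CPM). Genes with a mean of at least 5 CPM over the 3 macrophage sums are called tested, although no test was run. Intervals were exact Poisson for sums, exact conditional binomial for ratios and Clopper-Pearson for shares, at 95%. For detection per cell, each cell was thinned to 2000 UMIs without replacement (seed 20240127). Python 3.11.15, numpy 2.4.6, scipy 1.17.1 and pandas 2.3.3 were used, and intervals and thinning were tested on simulated data.

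The 10 genes and all lists were chosen with earlier results of these data known. The text names all 10 genes and, from each list and comparison, the pair of tested genes with the largest and the pair with the smallest ratio, by ratio or by CPM. Others, such as those given beside the Ccr2, Ccl8 and H2-Aa splits, were picked after their values were seen. Likeness used log2 of CPM plus 10. Promoter sequences and positions are from RefSeq, GRCm38.p6. Whether wild-type mice received doxycycline is not given in the sources used here. A gene of the lists that the rule would name is left out here.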

Additional observations from a re-analysis of the deposited data

How the results depend on the processing

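Each group had 1 library, so leaving out a replicate was not possible, and no paired analysis was possible because no group had a second library. The cause of each shift below was not tested unless its construction shows it. The median log2 ratio for WTUV over WTctrl was negative under all 10 alternatives. It was -0.56 with a limit of 4000 genes in every library, -0.78 with all deposited barcodes, -0.35 with the gate on thinned cells, -0.52 and -0.74 with gates of 5 and 3 markers, -0.57 as a mean over cells, -0.66 with median ratio scaling and -0.37 in macrophages without a Ccr2 UMI. The last setting and the removal of neutrophil-marked cells were added after seeing the data. For RPUV over WTUV the values in the same order were 0.31, 0.39, 0.028, 0.17, 0.36 and 0.22, with the scaling changing little, and the median reversed to -0.083 without Ccr2-positive cells. For RPUV over WTctrl it was -0.44 as a mean over cells and -0.49 without Ccr2-positive cells.

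The count of genes at least 2-fold lower for WTUV over WTctrl, 3, became 1 with the gate on thinned cells and 1 without Ccr2-positive cells. At a limit of 1.5-fold the counts were 6, 1 and 3 for WTUV over WTctrl, RPUV over WTUV and RPUV over WTctrl, against 3, 0 and 1, and without Ccr2-positive cells the latter pair became 1 and 2. The shares of all tested genes under these settings were not computed, so nothing is read from these counts. Of single genes, Maf for WTUV over WTctrl reversed to -0.021 with all deposited barcodes (0.12 in the filtered cells). Cd163 for RPUV over WTUV ranged from -0.34 to 0.15 around 0.018, and 6 of 10 alternatives kept its direction.

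Mean transcripts of the set per thinned macrophage kept the order WTctrl, RPUV, WTUV under all 10 alternatives. For WTctrl, WTUV and RPUV they were 4.99, 3.72 and 4.33 at 1000 UMIs, 6.76, 5.40 and 6.47 at 4000 UMIs, 6.35, 5.45 and 5.96 with the gate on thinned cells, 6.29, 5.05 and 5.97 with 5 markers, 5.80, 4.20 and 5.32 with 3 markers and 6.74, 5.77 and 6.04 without Ccr2-positive cells. All deposited barcodes gave 6.09 in WTctrl and 4.62 in WTUV, the 4000-gene limit 4.77 in WTUV, removal of cells with non-myeloid markers 4.84 in WTUV and 5.86 in RPUV, and removal of neutrophil-marked cells 5.77 in RPUV. Detection depended on depth: without thinning, Lyve1 was detected in 25.6%, 20.5% and 37.5% of macrophages of the 3 libraries.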
